A study of Macaca fuscata with 12 samples.

Results

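The glycolysis genes GPI, PKM and PFKFB3 were followed over 12 Affymetrix rhesus macaque arrays, in 7 of the 52766 probe sets that are not array controls. Every probe set whose single gene symbol in the array's gene table is GPI, PKM or PFKFB3 was taken, which gave 3 for GPI, 3 for PKM and 1 for PFKFB3. The 3 genes were chosen from measured values, for training changes that ran in opposite directions in the 2 regions or for a difference between the regions. The values in those comparisons are therefore given with their errors and without a test. A probe set that the table assigns to both LOC710798 and PKM was not counted.

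The arrays were hybridised with RNA from the left cerebral cortex of Japanese macaques (Macaca fuscata). Tissue came either from around the lateral sulcus, where the secondary somatosensory cortex (SII) lies, or from around the intraparietal sulcus (IPS), and from animals trained in tool use or from controls. Each of the 4 groups had 3 arrays. The 12 arrays came from 8 animals, of which 4 gave tissue from both regions.

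Arrays are numbered by the replicate in the labels. SII control 1 was a female of 4 years 6 months, SII control 2 a male of 5 years 4 months and SII control 3 a male of 5 years 10 months. SII trained 1 was a male of 5 years 7 months, SII trained 2 a female of 3 years 10 months and SII trained 3 a male of 5 years 1 month. IPS control 1 and IPS control 2 came from the males of SII control 2 and SII control 3, and IPS control 3 from a male of 3 years 9 months. IPS trained 1 and IPS trained 3 came from the males of SII trained 1 and SII trained 3, and IPS trained 2 from a male of 6 years. In bulk tissue, fewer cells of a type and less RNA per cell cannot be told apart.

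Glycolysis splits glucose into pyruvate in the cytosol and yields ATP and NADH. GPI turns glucose 6-phosphate into fructose 6-phosphate early in the pathway. PFKFB3 makes fructose 2,6-bisphosphate, the strong activator of phosphofructokinase, and so sets the pace of the pathway. PKM, the muscle and brain form of pyruvate kinase, carries out the last step and is made in alternatively spliced forms. In brain, neurons keep PFKFB3 protein low by degrading it, while astrocytes run glycolysis strongly and release lactate.

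Each value is in log2 units and shows how far an array lies from the median of that probe set, so it gives no level and the genes cannot be ranked by abundance. Probe sets are named by their identifiers, except that the GPI one with the prefix Mmu (the others have MmugDNA) is called the Mmu probe set of GPI, and the PKM one with the suffix s_at the s_at probe set of PKM. The signal before centring, recovered from the spacing of the numbers, was high (at least 256) for the GPI probe set MmugDNA.15667.1.S1_at, low for the s_at probe set of PKM, and middle (at least 16) for the other 5. None of the 7 carried the lowest value that marks probe sets at the floor of the array. Among the markers of cortical tissue, 4 of 8 neuronal, 4 of 6 astrocytic and 4 of 4 oligodendrocytic probe sets had a high signal, against 12.1% of all probe sets with a single symbol. None had one among the 9 microglial, 10 endothelial and pericyte, 13 meningeal and fibroblast, 3 choroid plexus and ependyma, and 6 red blood cell probe sets.

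The arrays differed in the state of the actin and GAPDH control probe sets, whose 3' minus 5' difference is larger when RNA or its copies are shorter. The actin difference ranged from -1.87 to 1.37 over the arrays. The GAPDH difference lay at -0.31, -0.27 and -0.51 in the SII controls and at 0.77, -0.05 and -0.23 in the SII trained arrays, so it did not overlap between these groups. Hybridisation controls, spiked in after the RNA was prepared, were raised in SII control 1 (0.45), SII trained 2 (0.49) and IPS trained 3 (0.46), against -0.15 to 0.08 elsewhere. SII control 1 and SII trained 2 were also the only arrays from female animals. With limma and Benjamini-Hochberg adjustment over all 52766 probe sets, 0 passed 5% for training in SII, training in IPS, the difference of the training changes, or region (0% in each). At an unadjusted p under 0.05 these 4 comparisons held 2043, 1726, 1944 and 4888 probe sets.

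GPI was lower in IPS than in SII in all 3 probe sets, and its training changes were smaller than their standard errors in both regions. In the Mmu probe set the SII controls read 0.09, 0.75 and 0.87 and the SII trained arrays 0.01, -0.06 and 0.79. The IPS controls read -0.16, 0.10 and -0.22 and the IPS trained arrays -0.01, -0.94 and -0.16. Training groups overlapped in both regions, and the 3 high values all came from SII. IPS lay -0.64 ± 0.24 (SE, limma, n = 6 against 6) relative to SII, while the training change was -0.33 ± 0.34 in SII and -0.27 ± 0.34 in IPS. Without SII trained 3 the SII change was -0.61, without SII trained 2 it was -0.19, and without IPS trained 2 the IPS change was 0.01.

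The high-signal GPI probe set MmugDNA.15667.1.S1_at had the tightest control groups. It read 0.46, 0.23 and 0.29 in the SII controls and -0.13, -0.09 and -0.01 in the IPS controls, which did not overlap. In trained animals it read -0.47, 0.58 and 0.41 in SII and -0.20, 0.01 and -0.29 in IPS. SII trained 1 was the lowest of the 12 arrays and SII trained 2 the highest, so the spread within that group (SD 0.56) exceeded the training change in SII of -0.15 ± 0.28. Without SII trained 1 this change was 0.17. The change in IPS was -0.08 ± 0.28, and IPS lay -0.36 ± 0.19 relative to SII, or -0.18 without the 3 arrays with raised hybridisation controls.

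MmugDNA.37076.1.S1_at was the only member whose SII mean was higher after training. Its SII controls read 0.21, -0.12 and 0.32 and its SII trained arrays 0.49, 0.50 and 0.08, a change of 0.22 ± 0.24 with overlapping groups. In IPS the controls read -0.02, -0.46 and -0.51 and the trained arrays 0.02, -0.34 and -0.42, a change of 0.09 ± 0.24. Leaving out single arrays moved the change between 0.09 (without SII control 2) and 0.35 (without SII trained 3) in SII and between -0.04 (without IPS trained 1) and 0.25 (without IPS control 1) in IPS. The lowest trained SII array lay above the highest trained IPS array, and over both treatments IPS lay -0.53 ± 0.17 relative to SII.

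PFKFB3, with a single probe set (MmugDNA.2360.1.S1_at), had a lower mean after training in SII and a higher one in IPS. The SII controls read 1.70, 0.44 and 1.08 and the SII trained arrays -0.58, 1.73 and 0.12. The IPS controls read -0.24, -0.51 and -0.68 and the IPS trained arrays -0.12, 0.97 and -0.42. The highest values came from the 2 female animals in SII, and IPS trained 2, a male with hybridisation controls at -0.02, was the highest of IPS. Training groups overlapped in both regions, while the 3 control values of IPS all lay below the 3 of SII.

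The training change of PFKFB3 was -0.63 ± 0.58 in SII and 0.63 ± 0.58 in IPS, each about as large as its standard error. Their difference was 1.26 ± 0.81, with 0.75 without SII trained 1 and 1.89 without SII trained 2. Single arrays moved these values: the change in SII was -0.13 without SII trained 1, -0.32 without SII control 1 and -1.28 without SII trained 2, and the change in IPS was 0.23 without IPS trained 2. IPS lay -0.90 ± 0.40 relative to SII. In male animals alone the region difference was -0.43, and without the 3 arrays with raised hybridisation controls it was -0.29; the part of sex and of these arrays in the result was not tested.

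PKM had lower means after training in SII and higher means in IPS in all 3 probe sets. In MmugDNA.9984.1.S1_at the SII controls read 0.76, 0.08 and 0.56 and the SII trained arrays -0.63, 0.55 and 0.07. The IPS controls read -1.52, -0.51 and -0.62 and the IPS trained arrays -0.07, 0.16 and -0.43. The IPS training groups did not overlap, which held for this 1 of the 7 members and for 9.49% of all probe sets. In SII they overlapped, as for all 7 members, where 7.08% of all probe sets had groups apart.

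The training change of this PKM probe set was -0.47 ± 0.38 in SII and 0.77 ± 0.38 in IPS, and their difference was 1.25 ± 0.52. IPS control 1 held the lowest of the 12 values, and without it the change in IPS was 0.46. In SII the change was -0.16 without SII trained 1 and -0.75 without SII trained 2. IPS lay -0.73 ± 0.26 relative to SII, or -0.44 without the 3 arrays with raised hybridisation controls.

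MmugDNA.2300.1.S1_at, also PKM, read 1.25, 0.23 and 0.53 in the SII controls and -0.27, 1.30 and 0.23 in the SII trained arrays. In IPS it read -0.77, -0.28 and -0.23 in the controls and -0.38, 0.94 and -0.81 in the trained arrays. As with PFKFB3, SII control 1 and SII trained 2 were highest, and IPS trained 2 stood above the other IPS arrays. The changes of -0.24 ± 0.51 in SII and 0.35 ± 0.51 in IPS were smaller than their standard errors. Their signs did not hold without single arrays, with 0.11 in SII without SII trained 1, 0.05 in SII without SII control 1, and -0.15 in IPS without IPS trained 2. The difference of the training changes was 0.59 ± 0.72, with 0.10 without IPS trained 2 and 1.01 without SII trained 2. The region difference was -0.80 ± 0.36, and -0.28 without the 3 arrays with raised hybridisation controls.

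The low-signal s_at probe set of PKM spread most. It read 1.84, 0.47 and 0.14 in the SII controls, -1.42, 1.49 and 0.15 in the SII trained arrays, -1.92, -0.14 and -2.99 in the IPS controls and -1.68, 1.22 and -0.68 in the IPS trained arrays. Its SD within groups ran from 0.90 to 1.47, so the changes of -0.69 ± 0.98 in SII and 1.31 ± 0.98 in IPS came with large errors. Without SII trained 1 the SII change was 0.04, without SII trained 2 it was -1.39, and without IPS trained 2 the IPS change was 0.52. IPS lay -1.46 ± 0.68 relative to SII, or -0.77 without the 3 arrays with raised hybridisation controls.

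**Figure D1:**
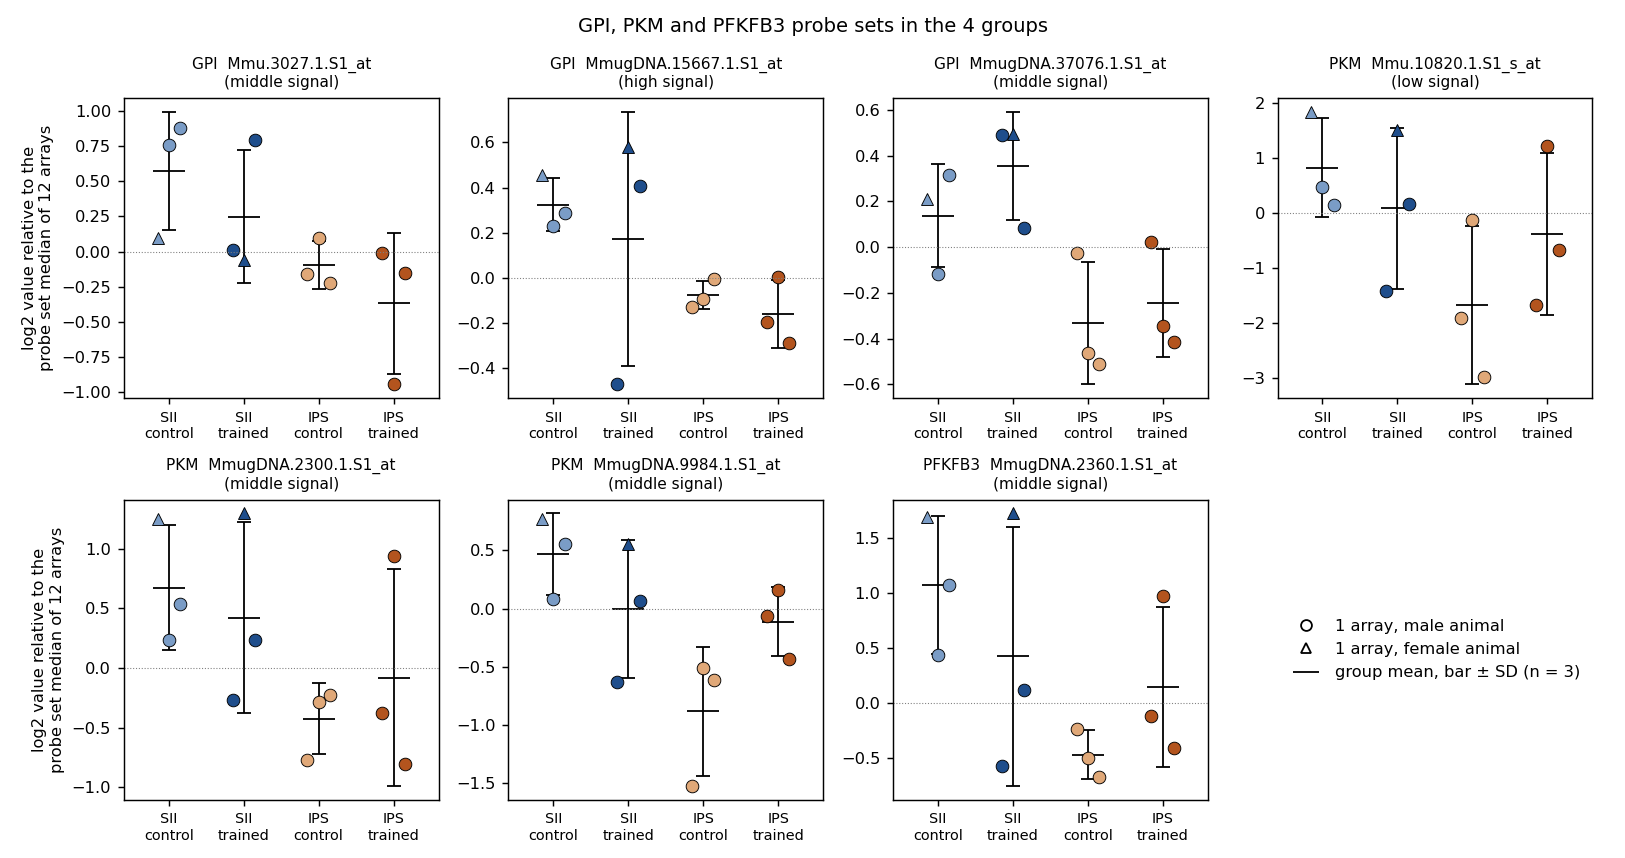
Centred log2 value of each of the 7 probe sets on each array, by group, with 3 arrays per group as points (triangles for female animals) and the group mean with its SD. For PKM MmugDNA.9984.1.S1_at the IPS trained values (-0.43 to 0.16) lie above the IPS control values (-1.52 to -0.51), whereas the training groups of the other probe sets overlap. Of all probe sets, 9.49% had IPS training groups that did not overlap.

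Over the 7 members, the training change was below 0 in 6 in SII and above 0 in 5 in IPS, and the difference of the changes was above 0 in 6. The signs were part of the choice of these genes and carry no weight beyond description. Opposite signs in SII and IPS were seen in the 3 PKM probe sets and in PFKFB3, while the 3 GPI probe sets had the same sign in both regions. The 7 rows share arrays and animals, so they are not separate observations of training.

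**Figure D2:**
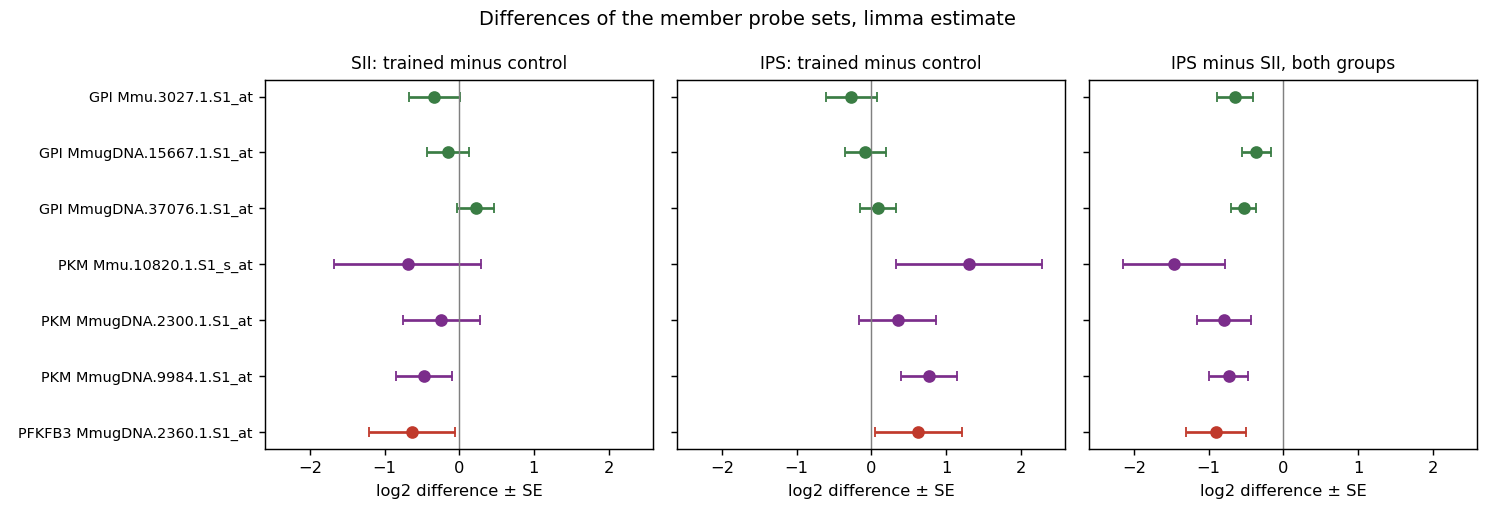
Training change in SII, training change in IPS and IPS minus SII for each of the 7 probe sets, in log2 units, with limma standard errors as bars. PKM and PFKFB3 have SII changes below 0 (-0.69 to -0.24) and IPS changes above 0 (0.35 to 1.31), and all 7 region differences lie below 0 (-1.46 to -0.36).

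IPS was lower than SII in all 7 probe sets, and stayed below 0 in all 25 alternative fits for each of them. Its size changed with the arrays included. In males alone it was -0.44 for PKM MmugDNA.2300.1.S1_at, -0.87 for the s_at probe set of PKM and -0.23 for GPI MmugDNA.15667.1.S1_at. Leaving out females removed SII control 1 and SII trained 2, both with raised hybridisation controls, so within SII sex and these controls cannot be told apart. In IPS the male array IPS trained 3 also had raised controls (0.46), and it read -0.42 for PFKFB3. The part of sex and of these controls was not tested. For the Mmu probe set of GPI the region difference was larger, at -0.84 in males alone and also without the 3 arrays with raised hybridisation controls. For PFKFB3 it was -0.59 without SII trained 2 and -0.58 within the 4 animals that gave both regions, where it was -0.94 for the s_at probe set of PKM. Over all arrays of a region, no member had regions that did not overlap, against 0.984% of all probe sets. In controls 5 of 7 members lay wholly lower in IPS (the GPI probe set MmugDNA.15667.1.S1_at, the 3 of PKM, and PFKFB3), where 8.7% of all probe sets did so and 19.4% lay apart in either direction. In trained animals this held for 1 of 7, MmugDNA.37076.1.S1_at of GPI, against 4.5% of all probe sets and 7.87% apart in either direction. The region difference was among the reasons for choosing these genes, so nothing is read from these shares.

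The 4 animals with both regions gave the region difference within an animal, and 24 of the 28 values were below 0. In the fit within these animals, 53.5% of all probe sets were above 0. The genes were chosen partly for a region difference, and the 7 probe sets share arrays, so this count is description only. The animal of SII control 3 and IPS control 2 was lower in IPS in 7 of 7 probe sets, with -1.59 for PFKFB3. The trained animal of SII trained 3 and IPS trained 3 was lower in 7 of 7, and the control of SII control 2 and IPS control 1 in 6 of 7. The trained animal of SII trained 1 and IPS trained 1 was lower in 4 of 7, and was higher in IPS by 0.46 for PFKFB3, by 0.56 for PKM MmugDNA.9984.1.S1_at and by 0.28 for GPI MmugDNA.15667.1.S1_at. This animal also differed in the control probe sets, with IPS minus SII of the actin 3' minus 5' difference at -1.96, against 1.89 to 2.92 in the other 3 animals. For GAPDH it was at -1.01, against 0.49 to 1.12. The part of the control differences in the member values was not tested within animals.

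**Figure D3:**
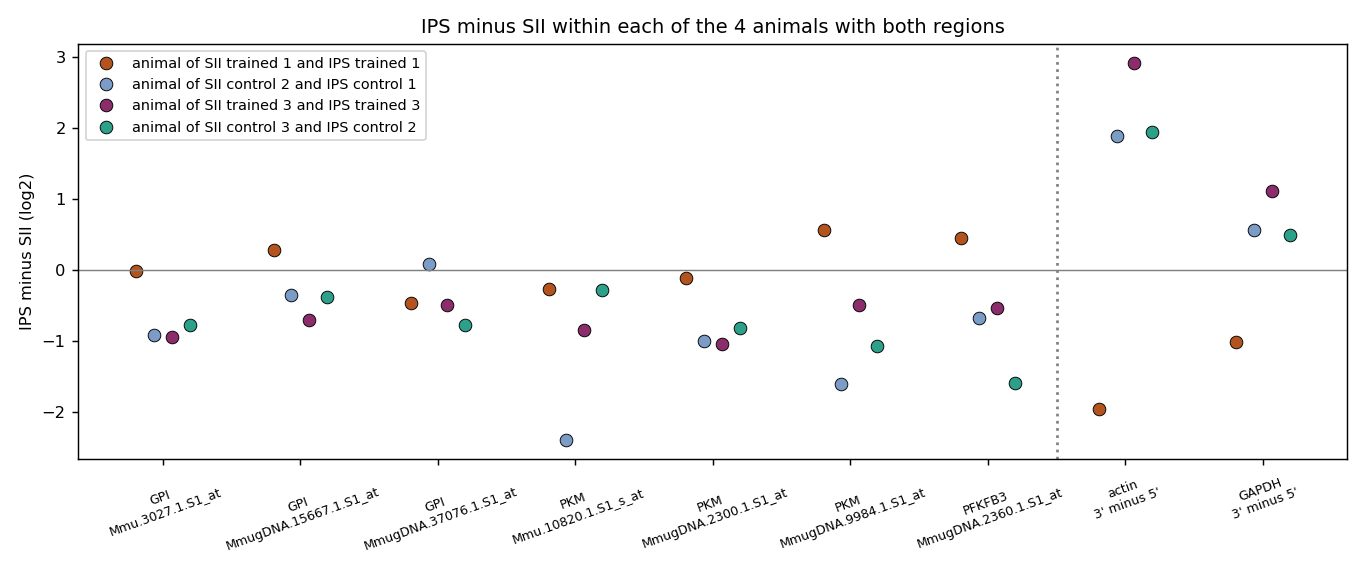
IPS minus SII within each of the 4 animals that gave both regions, in log2 units, for the 7 probe sets and for the actin and GAPDH 3' minus 5' differences. Most member points lie below 0 (24 of 28), and 3 of the 4 above 0 belong to the animal of SII trained 1 and IPS trained 1, with values of 0.28 to 0.56. The genes were chosen partly for a region difference, so the count is description only.

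PKM and PFKFB3 varied together over the arrays, as did the high-signal GPI probe set with them, while the other GPI probe sets did so less. Pearson's r over the 12 arrays was 0.78 to 0.85 among the 3 PKM probe sets and 0.82 to 0.92 between these and PFKFB3. Among the 3 GPI probe sets it was 0.34 to 0.40. For MmugDNA.15667.1.S1_at of GPI, r with PKM and PFKFB3 was 0.68 to 0.80, whereas for the Mmu probe set it was 0.02 to 0.28. With the group means taken out, r was 0.59 to 0.81 among the PKM probe sets, 0.67 to 0.89 between PKM and PFKFB3, and -0.20 to -0.08 among the GPI probe sets. With PKM and PFKFB3 it was then 0.62 to 0.78 for MmugDNA.15667.1.S1_at, -0.64 to -0.19 for the Mmu probe set and -0.18 to 0.27 for MmugDNA.37076.1.S1_at. The arrays share animals, scaling and hybridisation, so these values describe the 12 arrays and were not tested.

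The probe sets most like each gene over the 12 arrays were sought among 15253 with a middle or high signal and a single symbol. PFKFB3 was followed most closely by THRAP3 (r = 0.993), KCNA1 (0.986), which encodes a voltage-gated potassium channel subunit, and CAMK2N1 (0.976), an inhibitor of the calcium and calmodulin dependent kinase CaMKII. For PKM MmugDNA.9984.1.S1_at they were XAB2 (0.935), RAB5C (0.932), a small GTPase of early endosomes, and CRHR1 (0.931), the receptor of corticotropin-releasing hormone. GPI MmugDNA.15667.1.S1_at was followed by LOC700672 (0.957), PRPF8 (0.947), a core splicing factor, and CEBPB (0.947), a transcription factor. These are the highest of many correlations and are given as description.

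The relation of the members to the 3' minus 5' differences was tested within each region over 6 arrays of 6 animals, with 28 relations in all (7 probe sets, 2 controls and 2 regions). By exact permutation of the 6 values for Pearson's r (2-sided, 720 orders), 0 of 28 passed 5% after Benjamini-Hochberg adjustment over the 28. The smallest adjusted p of these permutation tests was 0.722. An unadjusted p under 0.05 was found for 1 of the 28, the Mmu probe set of GPI with actin in SII (exact permutation p = 0.0347, adjusted p = 0.722), where the arrays formed the separate sets described next. Of the 28 correlations, 20 were below 0, including 4 of the 7 with actin in SII. For Spearman's rho, computed on ranks, the smallest possible permutation p was 0.002778. A single rho could therefore not pass 5% on its own after adjustment over the 28. The p-values here and above measure the spread between these samples, each from 1 animal per region.

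For actin in SII the arrays fell into 2 sets, with SII control 2, SII control 3 and SII trained 3 between -1.87 and -1.54 and the other 3 between 0.25 and 1.17, so no pooled correlation is given. The Mmu probe set of GPI lay at 0.75 to 0.87 in the first set and at -0.06 to 0.09 in the second, with no overlap. This held for 1 of the 7 members, and for 18.2% of all probe sets in either direction, or 5.87% with the first set higher. Among middle-signal probe sets, as this one is, the shares were 21.1% and 8.89%. The other members overlapped, as with PFKFB3 at 0.12 to 1.08 in the first set and -0.58 to 1.73 in the second. With the actin difference as a covariate in the fit, the SII training change of the Mmu probe set was -0.04 in place of -0.33, and IPS minus SII was -0.44 in place of -0.64.

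For GAPDH in SII, the correlation was lowest for PKM MmugDNA.9984.1.S1_at, with r = -0.82 (exact permutation p = 0.0681, adjusted p = 0.722) and rho = -0.77 (exact permutation p = 0.103, adjusted p = 0.953). Without SII control 3 and SII trained 1, the 2 arrays farthest from the median GAPDH difference, r was 0.11 over 4 arrays. Those 4 spanned only -0.31 to -0.05, so this r cannot tell whether the relation rested on the arrays left out. With quantile normalization r was -0.96 (exact permutation p = 0.0153, adjusted p = 0.319), and for deviations from the group means it was -0.74. GPI MmugDNA.15667.1.S1_at had r = -0.81 (exact permutation p = 0.153, adjusted p = 0.722) but rho = -0.14 (exact permutation p = 0.803, adjusted p = 1.00), and r was 0.68 without the same arrays. PFKFB3 had r = -0.63 (exact permutation p = 0.158, adjusted p = 0.722) and rho = -0.37 (exact permutation p = 0.497, adjusted p = 1.00), and r was 0.34 without them. SII trained 1 held the highest GAPDH difference of SII (0.77) together with the lowest value of SII in PKM MmugDNA.9984.1.S1_at (-0.63), GPI MmugDNA.15667.1.S1_at (-0.47) and PFKFB3 (-0.58).

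With the GAPDH difference as a covariate, the SII training change of PKM MmugDNA.9984.1.S1_at was -0.10 in place of -0.47, that of PFKFB3 -0.22 in place of -0.63, and that of PKM MmugDNA.2300.1.S1_at 0.18 in place of -0.24. With the same covariate the IPS changes also shifted upward, to 0.93 for PKM MmugDNA.9984.1.S1_at and to 0.79 for PFKFB3. The GAPDH difference did not overlap between the SII groups, although SII control 2 (-0.27) and SII trained 3 (-0.23) lay close and SII trained 1 stood apart (0.77). With 3 arrays per group it and training can be told apart only in part there, and the part of each was not tested. In IPS the correlations of the 7 members ran from -0.61 to 0.44 with actin and from -0.57 to 0.25 with GAPDH, and none had an unadjusted exact permutation p under 0.05.

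**Figure D4:**
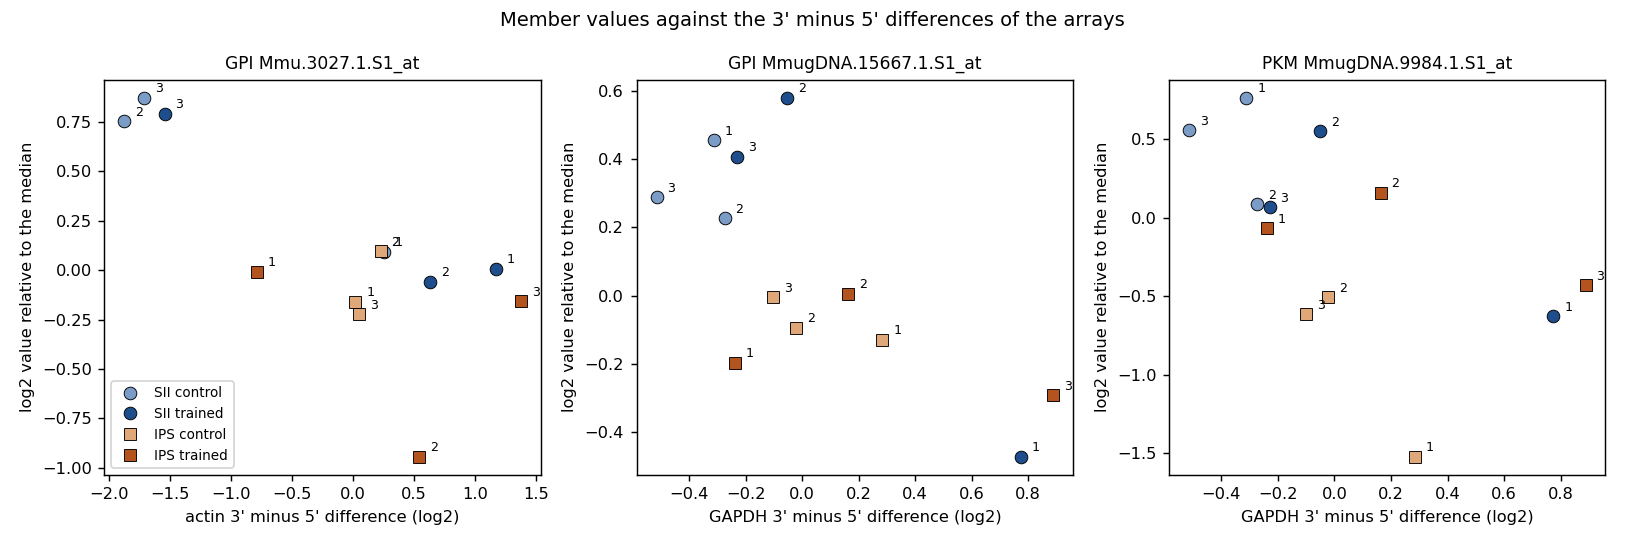
Centred log2 value of 3 member probe sets against the 3' minus 5' difference of the actin and GAPDH controls, both in log2 units, with SII arrays as circles, IPS arrays as squares and the replicate number beside each point. For actin in SII the points of the Mmu probe set of GPI form 2 separate sets (0.75 to 0.87 and -0.06 to 0.09), and the array at the highest GAPDH difference in SII (0.77) is the lowest for PKM MmugDNA.9984.1.S1_at (-0.63).

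The rest of the pathway was taken from a list of 49 genes of glucose uptake, glycolysis, lactate transport and gluconeogenesis, of which 36 were measured, 33 beside the 3 members. Each gene is the mean of its probe sets. None of the 33 passed 5% in any comparison (limma, Benjamini-Hochberg over 14132 genes, among which 0 passed for training and 3, or 0.0212%, for region). At an unadjusted p under 0.05 there were 2, 1, 1 and 4 of the 33 in SII training, IPS training, their difference and region, beside 493, 406, 464 and 1506 of all 14132 genes.

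In SII 15 of the 33 had a change above 0 after training, with a median of -0.02, where 54.5% of all genes were above 0 with a median of 0.03. In IPS it was 19 of 33 with a median of 0.07, beside 54.6% and 0.03. For the difference of the changes it was 15 of 33 with a median of -0.05, beside 49.5% and -0.00. For region 24 of 33 lay below 0 with a median of -0.21, where 53.2% of all genes lay below 0 and the median was -0.02.

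The genes of the list with the smallest p in each comparison did not pass the test. For training in SII they were HKDC1, a hexokinase-like enzyme, at 1.21 ± 0.41, and PFKFB1, a relative of PFKFB3, at 1.08 ± 0.39 (both adjusted p 1.00, limma), and each had probe sets at the floor (1 of 3 and 2 of 4). For training in IPS they were HK3, a hexokinase, at -1.05 ± 0.40, and G6PC2, a glucose 6-phosphatase subunit, at -0.59 ± 0.32. For the difference they were the lactate and pyruvate transporter SLC16A7 at 0.65 ± 0.29 and HKDC1 at -0.96 ± 0.57. For region they were PKLR, the other pyruvate kinase gene, at -1.57 ± 0.48 (adjusted p 0.372, limma) with its only probe set at the floor, and TPI1, which interconverts the triose phosphates, at -0.48 ± 0.20 (adjusted p 0.448, limma).

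The enzymes next to PKM and PFKFB3 in the pathway are given as gene means, on the same scale as PKM itself at -0.45 ± 0.55 in SII and 0.81 ± 0.55 in IPS after training. The enolases, which supply the substrate of pyruvate kinase, had values no larger than their errors, with ENO1 at -0.16 ± 0.19 in SII and 0.05 ± 0.19 in IPS and ENO2, the neuronal form, at 0.14 ± 0.29 and 0.23 ± 0.29. LDHA, which turns pyruvate into lactate, was at 0.00 ± 0.21 and 0.23 ± 0.21. The phosphofructokinases that PFKFB3's product activates were at -0.06 ± 0.37 and -0.27 ± 0.37 for PFKL and at 0.07 ± 0.20 and 0.03 ± 0.20 for PFKP. Of the 33 other list genes, 8 had an SII value below 0 with an IPS value above 0 (24.2%, against 24.6% of all genes). They were SLC2A1 (-0.66 ± 0.45 and 0.22 ± 0.45), which carries glucose into cells, the aldolases ALDOA (-0.22 ± 0.36 and 0.19 ± 0.36) and ALDOC (-0.32 ± 0.31 and 0.15 ± 0.31), GAPDH (-0.16 ± 0.28 and 0.22 ± 0.28), SLC16A7 (-0.28 ± 0.21 and 0.36 ± 0.21), HK1, ENO1 and G6PC1. Differences between these genes and the members were not tested.

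**Figure D5:**
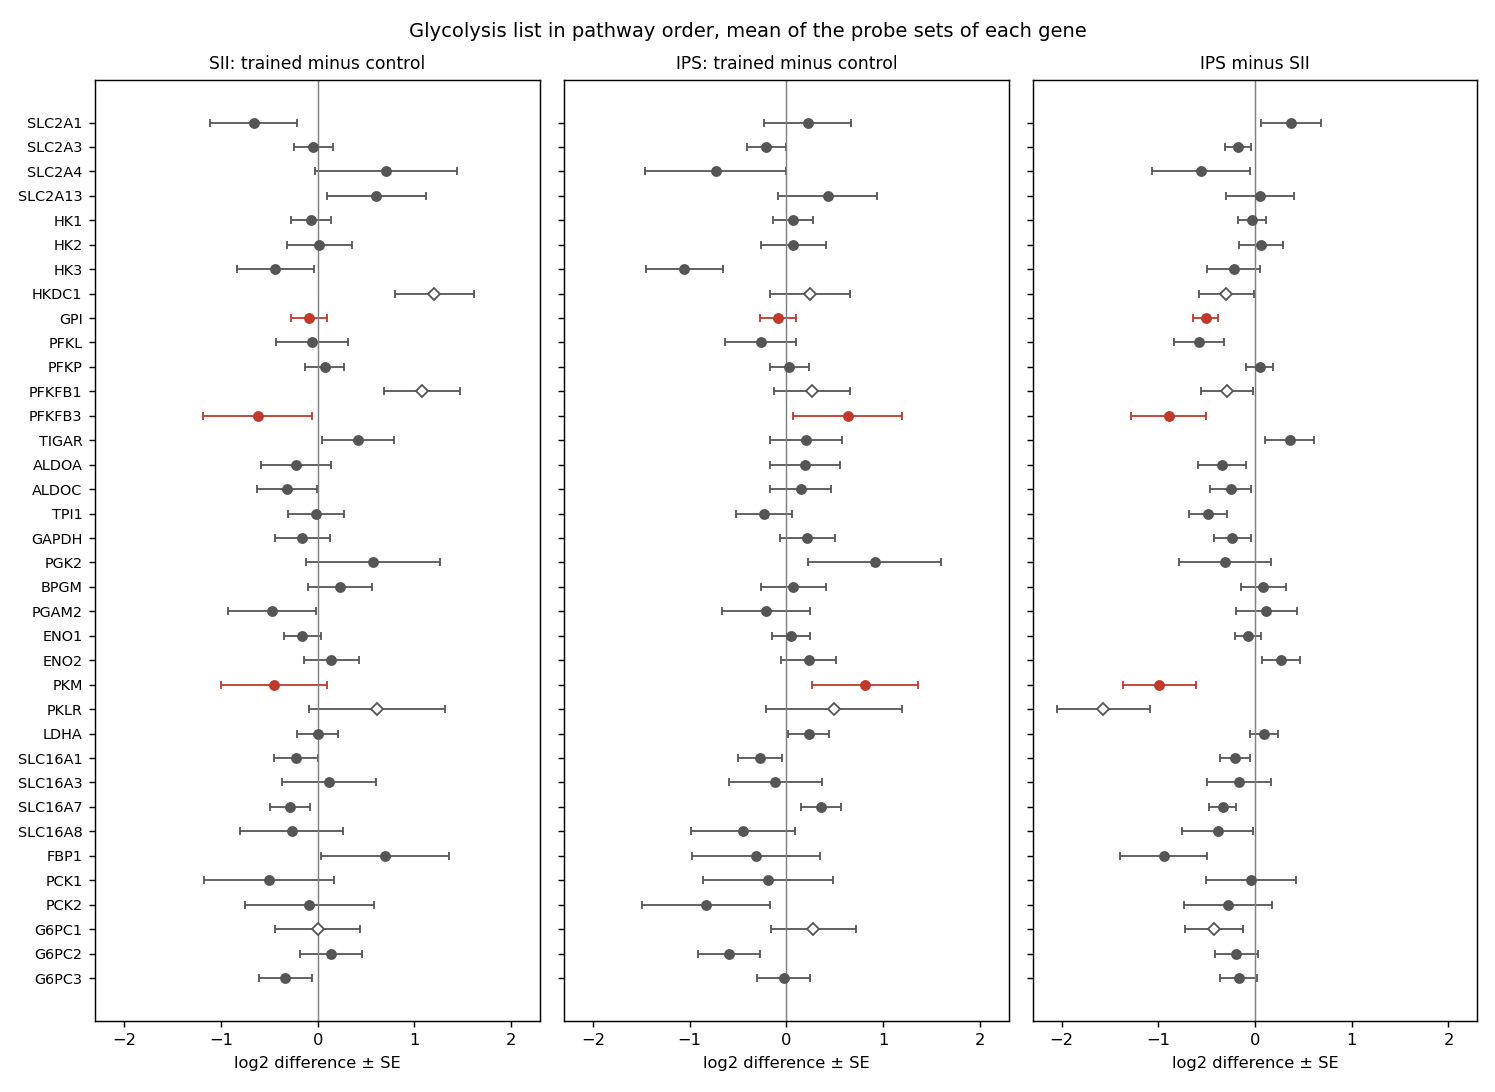
Training change in SII, training change in IPS and IPS minus SII of the measured genes of the glycolysis list, in log2 units and in pathway order, with limma standard errors as bars, GPI, PKM and PFKFB3 in red, and open diamonds for genes with a probe set at the floor. In the region comparison 24 of the other 33 genes lie below 0, and the training changes of these 33 lie on both sides of 0.

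Markers of cell types lay in either direction between the regions without passing the test, where 53.2% of all genes were lower in IPS. The 6 microglial genes measured were all lower in IPS with a median of -0.43, and the median of the list ran from 0.13 to 0.43 over the SII arrays and from -0.39 to -0.06 over the IPS arrays. The 4 astrocytic genes were all lower in IPS with a median of -0.13. Their list median overlapped, from -0.21 to 0.28 over the SII arrays and from -0.13 to -0.02 over the IPS arrays. Of the 3 neuronal genes measured 2 were higher in IPS, by at most 0.06, and 1 was lower, at -0.89. Also lower in IPS were 1 of 2 oligodendrocytic, 2 of 5 endothelial and pericyte and 1 of 5 meningeal and fibroblast genes. The same held for 2 of 3 choroid plexus and ependyma and 3 of 4 red blood cell genes. For training in SII, genes below 0 were 3 of 3 neuronal, 3 of 4 astrocytic, 1 of 2 oligodendrocytic, 3 of 6 microglial, 4 of 5 endothelial and pericyte, 4 of 5 meningeal and fibroblast, 0 of 3 choroid plexus and ependyma, and 1 of 4 red blood cell genes, beside 45.5% of all genes. None of these marker genes passed 5% in any comparison. The part of these markers in the values of GPI, PKM and PFKFB3 was not tested.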

How the data were processed

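The authors deposited log2 values, centred so that each probe set has a median of 0 over the arrays; the base was inferred from their range. Per the submitters' processing notes, MAS5 was used. How arrays were scaled is not stated in the labels. Values were used as deposited, and 99 array controls were left out.

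Groups, sex, age and animal came from the labels. With limma 3.58.1 under R 4.3.3, using statmod 1.5.0, a model of 4 group means was fitted to all probe sets, including the correlation of arrays from the same animal (0.0474), with Benjamini-Hochberg adjustment over all probe sets. Relations used exact permutation tests computed with numpy 2.4.6 under Python 3.11.15, and ranks came from scipy 1.17.1. The scripts were tested on simulated data. The number of arrays limits the precision.

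Named genes were the members, the 2 other list genes with the smallest p per comparison, and the 3 most similar probe sets per member gene; the measured enolases, lactate dehydrogenase and phosphofructokinases, and list genes with opposite signs in the regions, were added after their values were seen. The members and lists were chosen with earlier results of these data known. Alternatives covered scaling, weights, sex, age, covariates, a replicate block and each array left out. The fit without 3 arrays of raised hybridisation controls was added after seeing the data.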

Additional observations from a re-analysis of the deposited data

How the results depend on the processing

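The count of 0 probe sets past 5% held in most alternatives. For training in SII it was 1 with quantile normalization, 2 with array weights, 2 with sex as a covariate and 0 to 5 with single arrays left out (5 without SII trained 3). For training in IPS single arrays left out gave 0 to 2, and for the difference 0 to 2, with 1 when the actin difference was a covariate and 1 without the 3 arrays of raised hybridisation controls, an alternative chosen after seeing the data. For IPS against SII it was 5 with quantile normalization, 2 with sex as a covariate, and 0 to 3 with single arrays left out. The cause was not tested. With the replicate number as a block, 0 probe sets passed in each comparison; same-numbered arrays deviated together with correlations of -0.20 to 0.06, so the numbers were not taken as pairing. Of the member changes, 1 of 175 in SII and 1 of 168 for the difference moved by more than the SD within groups. Both were in GPI MmugDNA.15667.1.S1_at without SII trained 1 (0.17 and -0.26), and 0 of 175 did so in IPS and for region. With 3 arrays per group, leaving out 1 array can seldom move a change that far, so these counts do not show stability. Smaller shifts that turned the sign were not counted. The SII change of the s_at probe set of PKM was -0.69, and 0.04 without SII trained 1 (sign kept in 24 of 25 alternatives). With 3 arrays per group, probe sets of low signal are mostly measured less precisely than those of high signal (median SD within groups 0.777 against 0.232). The s_at probe set of PKM, with a pooled SD of 1.34, exceeded 94.9% of low-signal probe sets, so its spread was not typical of its class.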

Other observations

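Pathways that branch from glycolysis were measured in small numbers, and none of their genes passed 5% in limma with Benjamini-Hochberg adjustment over all genes. Of 8 measured genes that govern the entry of pyruvate into mitochondria, 7 had an IPS training change above 0 (median 0.11), and 2 had an SII change above 0 (median -0.04). Of all genes, 54.6% were above 0 in IPS and 54.5% in SII. Of the 3 pentose phosphate genes measured, 3 were above 0 for training in SII and 2 in IPS. Glycogen genes were above 0 in 4 of 5 for training in either region, and below 0 in 4 of 5 for IPS against SII. Each of these counts includes PGM1 and GYS2, whose only probe sets were at the floor. UGP2 and PYGL were at 0.01 for training in SII, and GYS1 was at -0.01 for region. Genes of the hypoxia response were above 0 in 6 of 8 for training in SII and in 4 of 8 in IPS.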
